A study of Junco hyemalis with 13 samples.

Results

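Chaperones fold proteins, and the endoplasmic reticulum (ER) is where membrane and secreted proteins are folded. The expression of 8 genes of this machinery was examined in the hypothalamus of dark-eyed juncos. They are HYOU1, CANX, HSPA8, EIF2AK3, EDEM1, DERL3, VIMP and SELK, 8 of 15363 elements in the count tables, of which 11454 had a count and 9938 had at least 5 counts in at least 6 libraries and were tested. All 8 members passed this filter. Members were found by gene symbol in the study's name table. In the copy used here, HYOU1, CANX and HSPA8 are among the 175 rows placed first for a small p in these same birds, so their difference between populations is described below without a test. The other 5 are among 1048 rows in identifier order, whatever their p.

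The birds were 7 resident (J. h. carolinensis) and 6 migrant (J. h. hyemalis) free-living males, which share one wintering ground in Virginia and were caught there in March. No bird was treated. Each bird gave 1 library of polyA RNA from a frozen hypothalamic punch, so every value is the mixture of all cell types in the punch, and fewer cells of a type cannot be told apart from less RNA per cell. Birds are the replicates, and population is tied to subspecies and to everything in which the subspecies differ. Population is also partly tied to library number. Numbers 1, 2 and 3 were all migrants and numbers 10, 11, 13 and 14 all residents, with the others mixed.

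Total counts ran from 4308064 to 5469786 in residents and from 4319503 to 5826833 in migrants. Neuronal, glial and neuropeptide markers were detected in both populations. The summed level of 4 neuropeptide genes (NPVF, CRH, NTS and PENK) was between 853.5 and 2061 CPM (counts scaled to a common library size) in residents and between 1001 and 1333 CPM in migrants. The 4 haemoglobin genes, which mark blood, summed to between 3497 and 10385 CPM in residents and between 4782 and 12703 CPM in migrants. The 3 that were tested were all lower in residents by estimate and did not pass. HBAA and HBAD had log2 fold changes of -0.59 and -0.53 (unadjusted p = 0.038 and 0.039 in edgeR). HBE1 had -1.08, resting on 97 counts in total. The part of this blood signal in the values of the members was not tested. Resident replicate 4 and migrant replicate 1 stood apart on the first principal component of all genes after population means were removed, at scores of 45.1 and 46.8, where the other 11 birds lay between -19.6 and 4.04. This component held 26.2% of the variance.

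Newly made ER proteins are bound by calnexin (CANX), a lectin that holds glycoproteins until they are folded, and by the Hsp70-type chaperone of the ER, which works with HYOU1 as its exchange factor. Unfolded protein is sensed by kinases in the ER membrane, among them PERK, the product of EIF2AK3, which slows translation. Terminally misfolded proteins are recognised by lectins such as EDEM1 and passed out of the ER through a complex that holds derlins (DERL3) and the selenoproteins S (VIMP) and K (SELK), to be degraded by the proteasome. HSPA8 is the constitutive Hsp70 of the cytosol and, in neurons, also strips clathrin from vesicles. Hypothalamic neurons secrete large amounts of peptide and depend on this route.

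Residents had more transcript of the 3 chaperones chosen for a small p, by 1.24- to 1.37-fold. The 5 sensor and degradation genes, named whatever their p, were at 0.920 to 1.05 times the migrant mean. The 3 were chosen for this difference and the 5 were not, so the contrast cannot be read as one of function. HYOU1 ranged from 87.4 to 120.7 CPM in residents (median 108.0), against 72.9 to 89.7 CPM in migrants (median 85.2). All residents but replicate 3 lay above the highest migrant. The means were 106.0 ± 12.1 CPM in residents (SD, n = 7) and 83.5 ± 5.77 CPM in migrants (SD, n = 6), a log2 fold change of 0.34 (standard error 0.10).

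CANX ranged from 110.1 to 176.4 CPM in residents (median 140.4), against 94.8 to 127.6 CPM in migrants (median 114.4). In 5 of 7 residents it was above every migrant. The 2 libraries that stood apart on the first component also had the lowest CANX of their populations, 110.1 CPM in resident replicate 4 and 94.8 CPM in migrant replicate 1. The log2 fold change was 0.31 (standard error 0.12).

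HSPA8 was split among residents. Replicates 1, 2, 4 and 6 had 936.8, 1247, 1061 and 1164 CPM, above every migrant. Replicates 3, 5 and 7 had 719.6, 694.9 and 745.1 CPM, inside the range of the migrants, which ran from 541.3 to 830.9 CPM (median 678.5). The means were 938.4 ± 225.8 CPM in residents (SD, n = 7) and 685.9 ± 102.4 CPM in migrants (SD, n = 6), a log2 fold change of 0.45 (standard error 0.16). Its coefficient of variation was 24.1% in residents and 14.9% in migrants, where counting alone would give 1.46% and 1.72%. Nearly all of this spread thus lay between libraries and not in the depth. With 1 library per bird, differences between birds cannot be told apart from those of dissection or library making. Reads of near-identical Hsp70 genes may be counted in HSPA8 or lost from it.

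**Figure D1:**
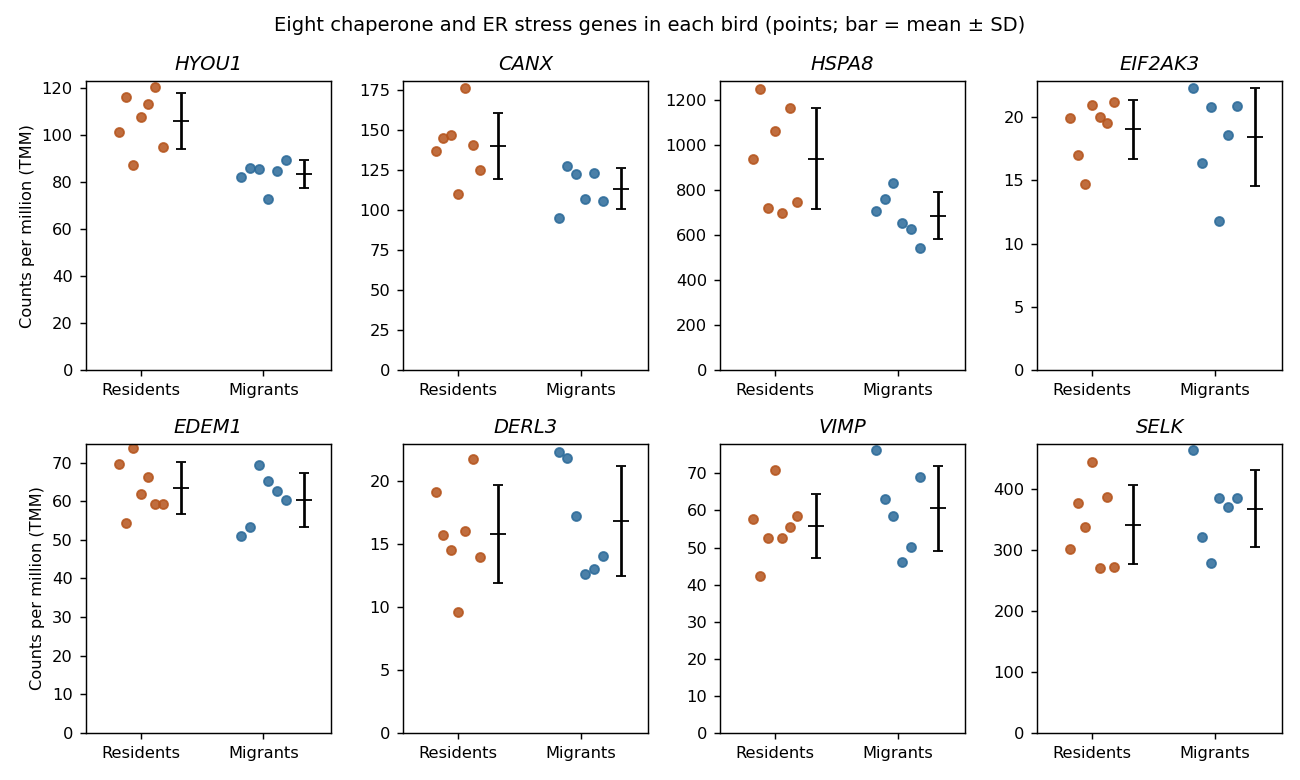
CPM of the 8 members in each bird (points, residents left and migrants right in each panel; vertical axes start at 0 and differ between panels), with the mean and SD of each population (black). HYOU1, CANX and HSPA8 were chosen for a small p in these birds and sit higher in residents. They overlap too, with 1, 2 and 3 of 7 residents, in that order, inside the range of the migrants. The other 5 genes overlap more. EIF2AK3 has all 7 residents inside that range, DERL3 and VIMP have 6, and EDEM1 and SELK have 5.

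EIF2AK3, the translation-slowing kinase, had 14.7 to 21.1 CPM in residents (median 19.9) and 11.8 to 22.3 CPM in migrants (median 19.7). All 7 residents lay within the range of the migrants. Its log2 fold change was 0.05, with a 95% interval from -0.31 to 0.40. The degradation lectin EDEM1 had 54.3 to 73.8 CPM in residents (median 61.9) and 50.9 to 69.3 CPM in migrants (median 61.5), a log2 fold change of 0.07 with an interval from -0.17 to 0.32.

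The channel gene DERL3 rested on few counts, with 37 to 117 per resident library and 54 to 131 per migrant library. It had 9.58 to 21.7 CPM in residents (median 15.7) and 12.6 to 22.3 CPM in migrants (median 15.6). Its log2 fold change was -0.09 with an interval from -0.53 to 0.35, the widest of the 5. The sign was positive without both libraries apart (0.09) and with library number as a covariate (0.28), so no direction can be read from it.

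The selenoproteins of the degradation complex, VIMP and SELK, overlapped between populations. VIMP had 42.3 to 71.0 CPM in residents (median 55.5) and 46.1 to 76.3 CPM in migrants (median 60.8), a log2 fold change of -0.12 with an interval from -0.42 to 0.18. SELK had 270.1 to 444.4 CPM in residents (median 337.4) and 277.8 to 463.8 CPM in migrants (median 377.4), a log2 fold change of -0.11 with an interval from -0.42 to 0.21. For both genes the highest bird of each population was the library that stood apart on the first component. Without migrant replicate 1 the log2 fold change was -0.05 for VIMP and -0.03 for SELK, and without resident replicate 4 it was -0.19 and -0.18. None of the 5 genes passed the test over all elements (adjusted p = 0.996 for each in edgeR, and 0.999 in DESeq2). The 95% intervals of all 5 genes include 0. They end at 0.40 for EIF2AK3, 0.32 for EDEM1, 0.35 for DERL3, 0.18 for VIMP and 0.21 for SELK. A rise within these intervals could not be told from none.

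Over all elements edgeR's quasi-likelihood test called 0 of 9938 (0%) and DESeq2 called 3 of 9932 (0.0302%), none of them a member. An unadjusted p under 0.05 was found for 442 elements (4.45%). The populations did not overlap, with residents higher, for 9 elements (0.0906%), and for none of the 8 members. Of the 5 members not chosen by p, 2 were higher and 3 lower in residents by estimate, with a median log2 fold change of -0.09 beside 0.002 over all elements tested.

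Other genes of the same route were counted from 6 lists, restricted to genes named whatever their p. Of 63 such genes 60 were tested, and none passed edgeR's test in either direction. By estimate 21 were higher and 39 lower in residents, where the median log2 fold change over all elements tested was 0.002. These signs are not separate observations, since 22 of the 60 genes rose with SELK from bird to bird (below). The 1 gene with an unadjusted p under 0.05 in edgeR was CAMLG, at a log2 fold change of -0.30. It encodes a receptor for insertion of tail-anchored proteins into the ER membrane. Among 18 genes of ER folding and translocation, the median log2 fold change was -0.07. They ran from -0.32 for SEC61B, a subunit of the channel that admits new proteins to the ER, to 0.10 for MLEC, a lectin that binds newly made glycoproteins. The 4 listed genes of ER-associated degradation were all higher by estimate, from 0.02 for RNF185 to 0.19 for ERLIN1 (median 0.12), without passing. The members of the same route are not in this list. Of them EDEM1 was higher by estimate (0.07), and DERL3 (-0.09), VIMP (-0.12) and SELK (-0.11) were lower.

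Of the 4 listed genes of unfolded protein response signalling, ATF4 was too low to test. The others ran from -0.07 for EIF2B2, a subunit of the factor that PERK signalling restrains, to 0.21 for the transcription factor CEBPB. The 4 genes of ER export and retrieval had a median of -0.14, from -0.17 for RER1 to 0.19 for SEC24D. Among 17 cytosolic and mitochondrial chaperones, 6 of which rose with SELK (below), 14 were lower by estimate, with a median of -0.13. They ran from -0.30 for DNAJC17, a J-domain protein, to 0.03 for AHSA1, the activator of the Hsp90 ATPase. The 14 proteasome genes had a median of -0.04, from -0.17 for the assembly factor POMP to 0.15 for PSMA2 and PSMD1. The list medians thus ran from -0.14 to 0.12. The 3 chosen chaperones were selected for their difference in these birds, so their values cannot be weighed against these medians.

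**Figure D2:**
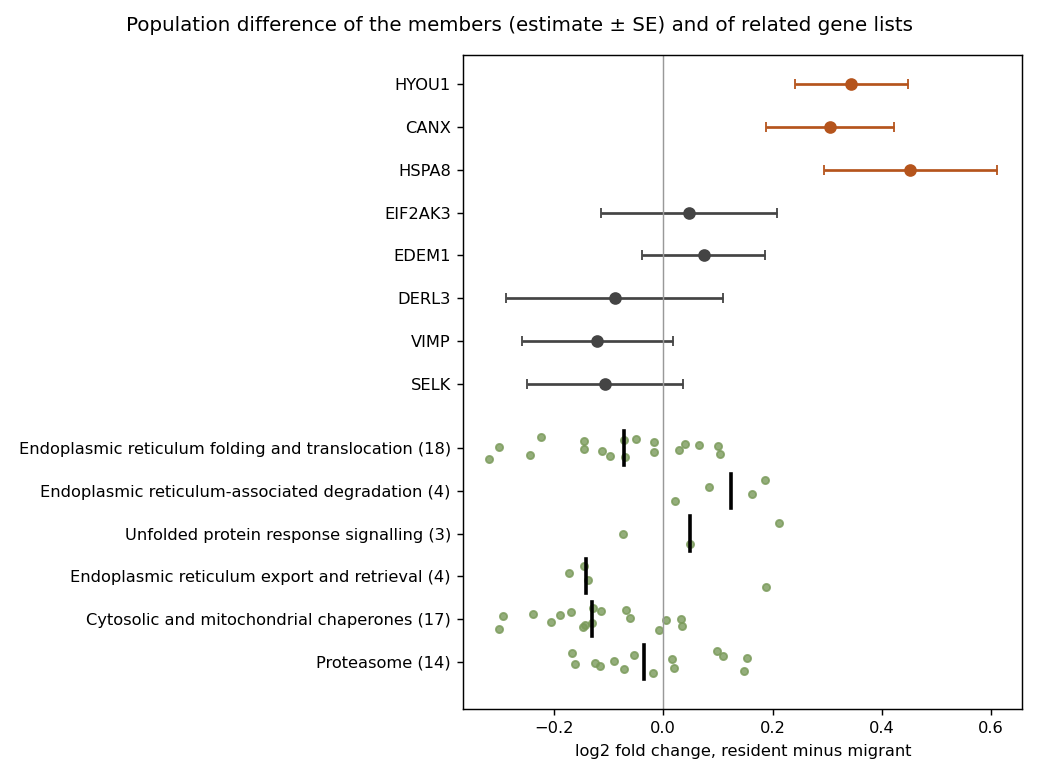
Log2 fold change, resident minus migrant, of the 8 members (large points with standard errors; orange for the 3 chosen by a small p) and of 60 genes in 6 lists (green points, 1 per gene, with black bars at the list medians). The lists lie around 0, with medians from -0.14 to 0.12. The 3 orange points, selected for their difference in these birds, lie between 0.31 and 0.45 and cannot be weighed against the lists.

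The co-variation of the members from bird to bird within populations does not use the difference in means between populations. The small p that chose 3 of them also depends on the spread within populations, so the correlations are not wholly apart from that choice. Log2 CPM values were centred on each population mean and correlated over 13 birds. Of 28 pairs, 15 had a positive and 13 a negative r, with a mean of 0.01. No pair passed the permutation test after Benjamini-Hochberg adjustment (lowest adjusted p = 0.346), and 2 pairs had an unadjusted p under 0.05. The 8 genes thus had no shared rise and fall that was detectable with 13 birds.

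The highest correlation was between EIF2AK3 and VIMP, at r = 0.69 over all 13 birds (Spearman's rho = 0.75). The permutation p was 0.0165 for r and 0.00757 for rho, and 0.346 and 0.212 after adjustment. It was 0.63 without both libraries apart and 0.65 without the 2 birds farthest from the median of EIF2AK3, and it was positive in residents (0.60) and in migrants (0.75) alone. CANX and SELK had the lowest r, -0.64 (rho -0.62). The permutation p was 0.0247 for r and 0.0361 for rho, and 0.346 and 0.401 after adjustment. This relation was -0.33 without both libraries apart and -0.39 without the 2 birds farthest from the median of CANX.

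The 3 chaperones that were higher in residents did not follow one another closely from bird to bird. HYOU1 and HSPA8 had r = 0.48 (rho 0.43; permutation p = 0.150 and 0.199, adjusted 0.645 and 0.641). That relation was 0.66 within residents and -0.08 within migrants, and the difference between populations was not tested. CANX had r = 0.22 with HYOU1 and -0.14 with HSPA8. CANX and HSPA8 had r = -0.37 within residents alone and 0.39 within migrants alone. Resident replicate 5, for example, had the highest CANX (176.4 CPM) and the lowest HSPA8 (694.9 CPM) of its population.

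**Figure D3:**
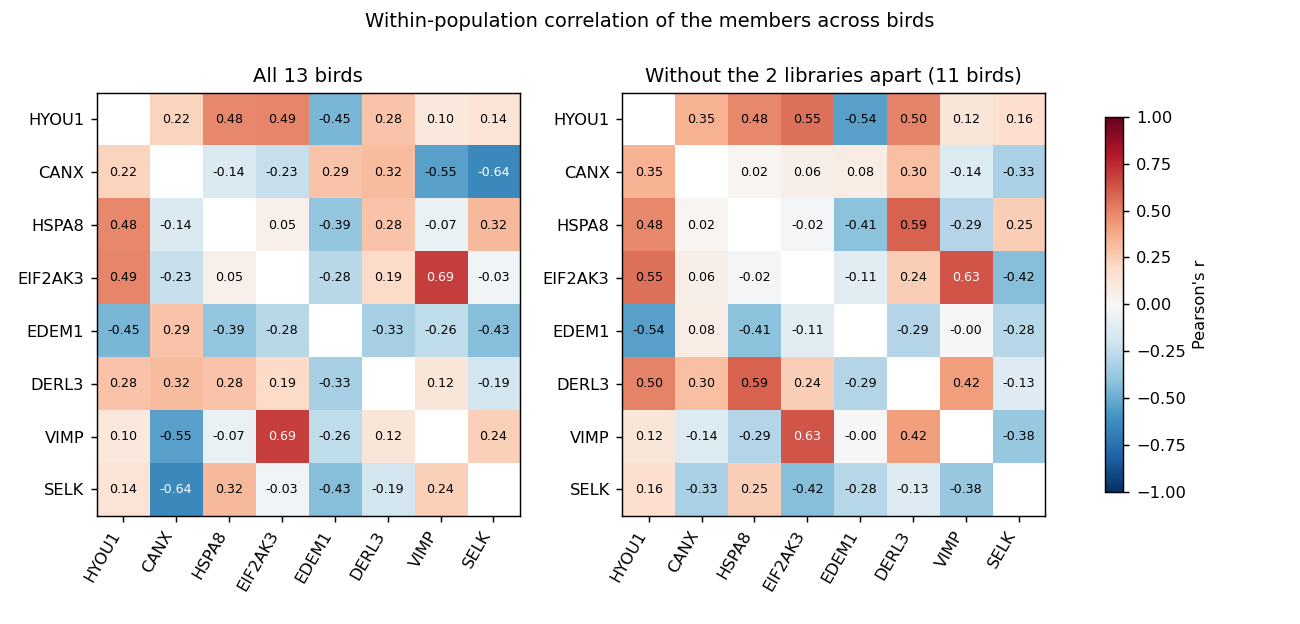
Pearson's r of each pair of members over birds, after removal of population means, with all 13 birds (left) and with the 11 birds left without the 2 libraries apart (right). Red squares are positive and blue squares negative. The strongest squares on the left are EIF2AK3 with VIMP at 0.69 and CANX with SELK at -0.64, and the second weakens to -0.33 on the right.

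HSPA8 was followed by other elements from bird to bird, among them 3 of the listed chaperones. After genes alike to it had been seen, a fit over all 9937 other elements was added, with population and the log2 CPM of HSPA8 as terms. The same fit was made for each of the 8 members. Its p-values were adjusted over the elements of 1 fit, and not over the 8 fits or for the choice of HSPA8. In edgeR's quasi-likelihood test 12 elements rose with HSPA8 (0.121%) and 5 fell (0.0503%). Of these 17 elements 5 have a name here, 4 that rose and 1 that fell, and all 17 were also called without both libraries apart, where 61 rose and 48 fell. Leaving out 1 bird took the counts to between 1 and 30 rising and between 0 and 24 falling. They were lowest, at 1 rising and 0 falling, without resident replicate 2 or migrant replicate 6, and highest without migrant replicate 1. Of the 13 such fits, 2 or fewer elements rose also without resident replicates 3, 5 and 7. The slope is the log2 change of a gene for each log2 unit of HSPA8 between birds of one population.

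The steepest named gene was LOC100190429, named as heat shock protein 25, a small heat shock protein. It rested on few counts, 904 in total over the 13 libraries. It had 4.88, 30.7, 3.07, 22.3, 3.17, 21.5 and 5.19 CPM in resident replicates 1 to 7. Replicates 2, 4 and 6, the 3 residents with the most HSPA8, were the 3 with over 20 CPM. Migrant replicates 1 to 6 had 15, 13, 33.5, 17.5, 7.73 and 4.33 CPM, with the highest value in replicate 3 and the lowest in replicate 6, which were also the migrants with the most and the least HSPA8. The slope was 3.96 (standard error 0.46), at an adjusted p of 0.00146 in the quasi-likelihood test of edgeR, with r = 0.94 in residents and 0.89 in migrants. It passed in each of the 13 fits that left out 1 bird (adjusted p from 0.000421 to 0.0270).

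AHSA2 and AHSA1, relatives of each other that encode activators of the Hsp90 ATPase, had slopes of 1.30 (standard error 0.22) and 1.11 (standard error 0.20), with adjusted p = 0.0217 and 0.0346 from the same edgeR test. AHSA1 had 223.0 to 557.8 CPM in residents (median 349.3) and 282.3 to 445.3 CPM in migrants (median 362.8). Its highest level was in resident replicate 2, the bird with the most HSPA8, and its lowest in resident replicate 5. AHSA2 had 95.9 to 212.9 CPM in residents (median 129.6) and 97.1 to 211.9 CPM in migrants (median 155.4).

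These calls were less stable than that of heat shock protein 25. AHSA1 no longer passed in 9 of the 13 fits without 1 bird (migrant replicates 2, 4, 5 and 6, resident replicates 1, 2, 3, 5 and 7; highest adjusted p = 0.171), and AHSA2 in 6 (migrant replicates 3 and 6, resident replicates 2, 3, 5 and 7; highest adjusted p = 0.108). Slopes stayed positive in all of them, from 0.98 to 1.20 for AHSA1 and from 1.16 to 1.46 for AHSA2.

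EGR1, an immediate early transcription factor, also rose with HSPA8, with a slope of 2.02 (standard error 0.34, adjusted p = 0.0217 from edgeR). It had 48.5 to 144.2 CPM in residents (median 60.6) and 35.1 to 123.0 CPM in migrants (median 43.1). Its 3 highest residents were again replicates 2, 4 and 6, at 111.8, 144.2 and 106.4 CPM. ELOVL2, an elongase of polyunsaturated fatty acids, was the 1 named gene that fell with HSPA8, with a slope of -1.36 (standard error 0.22, adjusted p = 0.0217 from edgeR). It had 122.4 CPM in resident replicate 2 and 380.0 CPM in resident replicate 5, the residents with the most and the least HSPA8. EGR1 no longer passed in 6 fits without 1 bird (migrant replicates 3 and 6, resident replicates 2, 3, 5 and 7), nor ELOVL2 in 4 (migrant replicate 6, resident replicates 2, 3 and 5).

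Of the 17 listed cytosolic and mitochondrial chaperones, heat shock protein 25, AHSA1 and AHSA2 were the 3 that rose with HSPA8, and CHORDC1, a co-chaperone of Hsp90, was a 4th without both libraries apart (adjusted p = 0.0196 from edgeR). None of the other 43 genes in the ER, degradation and proteasome lists passed. No member passed either, and HYOU1 had a slope of 0.22 (standard error 0.18, adjusted p = 0.751 from edgeR). The median r to HSPA8 was 0.37 over the 3 tested genes of unfolded protein response signalling, 0.36 over the proteasome list, 0.33 over the export list and 0.30 over the chaperone list. It was 0.15 over the ER folding list and 0.11 over the degradation list, beside 0.00 over all elements. The listed genes are not separate observations, since 22 of the 60 rose with SELK (below). SELK itself had r = 0.32 with HSPA8 over 13 birds, at 0.76 within residents and -0.57 within migrants. That difference between populations was not tested, and neither were the medians.

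**Figure D4:**
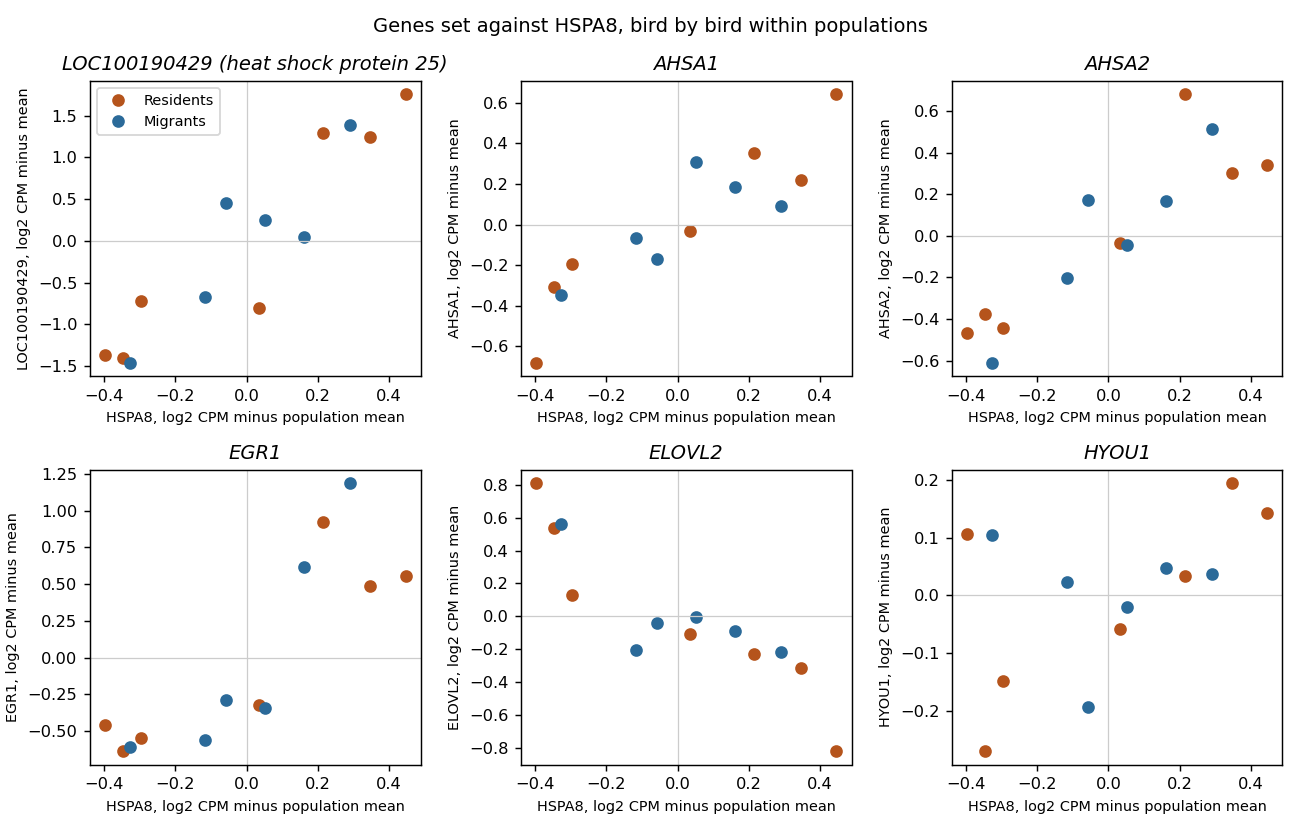
Log2 CPM minus the population mean of 6 genes (vertical) against that of HSPA8 (horizontal), 1 point per bird, residents orange and migrants blue. Heat shock protein 25, AHSA1, AHSA2 and EGR1 run upward with HSPA8 in both populations (r from 0.85 to 0.93 over 13 birds), ELOVL2 runs downward (r = -0.89), and HYOU1 is scattered (r = 0.48).

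Between populations the named followers of HSPA8 had estimates of both signs. The log2 fold change was 0.45 for HSPA8, beside -0.24 for heat shock protein 25 (standard error 0.53), 0.03 for AHSA1 (standard error 0.18) and -0.14 for AHSA2 (standard error 0.20). EGR1 had 0.44 (standard error 0.32), close to the value of HSPA8, and ELOVL2 had 0.29 (standard error 0.21). None of these 5 followers passed the test between populations. The ratio of HSPA8 to AHSA1 was between 2.24 and 3.12 in residents (median 2.49) and between 1.58 and 2.17 in migrants (median 1.89). The lowest resident lay above the highest migrant for this ratio. It overlapped for AHSA2, at 4.99 to 7.65 in residents and 3.90 to 5.57 in migrants, and for heat shock protein 25, at 40.6 to 234.1 in residents and 24.8 to 125.0 in migrants. The ratios divide the gene chosen for its difference between these birds by genes picked for following it within populations. Such a division takes out shared spread and keeps the chosen difference, so a separation was favoured in advance. How many other genes would give a separated ratio was not counted. The ratios were also formed after the values were seen, so they are given as a description only.

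By the within-population r, the named genes most like HSPA8 among 948 with a mean of at least 10 CPM were heat shock protein 25 (0.93), the synaptic vesicle protein SV2C (0.91) and AHSA1 (0.90). SV2C had a slope of 0.91 that did not pass with all birds (adjusted p = 0.0714 from edgeR). For HYOU1 those reported here were the adaptor BCAR1 (0.77, rho 0.56) and the amyloid precursor APP (0.65, rho 0.80). SV2C, BCAR1 and APP have a name here only through the rows placed first for a small p in these birds. For CANX they were the histone demethylase KDM3A (0.79), CTDSPL2 (0.78) and the transcription factor MEF2D (0.77), and these fell to 0.60, 0.74 and 0.43 without both libraries apart. The lists of most alike genes of the 3 chaperones had no gene in common. No element passed the added fit for CANX, HYOU1, EIF2AK3, VIMP, EDEM1 or DERL3 with all birds in edgeR, where 2102, 321, 446, 1098, 977 and 536 elements had an unadjusted p under 0.05. Without both libraries apart 1 element passed for VIMP.

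SELK was the other member with followers, and far more of them. In the same added fit 753 elements rose with SELK (7.58%) and 437 fell (4.4%), and without both libraries apart 247 rose and 27 fell, with 241 called in both. The named genes most like it were NME2, a nucleoside diphosphate kinase, NDUFA1, a subunit of respiratory complex I, and CYCS, cytochrome c (each at r = 0.97 over 13 birds). Of the 60 listed genes 22 rose with SELK and none fell, and 9 rose without both libraries apart. Listed genes were drawn only from genes named in identifier order. The share that rose among other genes so named was not counted, so the 22 cannot be read as particular to these lists.

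These 22 were spread over 5 of the 6 lists. There were 8 of 14 proteasome genes, led by PSMB1 (slope 1.09, adjusted p = 0.000966 from edgeR), and 6 of 17 chaperones, led by PFDN1, a subunit of prefoldin (slope 1.48, adjusted p = 0.000323), and HSPE1, the mitochondrial co-chaperonin (slope 1.30, adjusted p = 0.000339). There were also 6 of 18 genes of ER folding and translocation. The selenoprotein SEP15, which binds a glycoprotein folding sensor of the ER, had a slope of 1.35 (adjusted p = 0.000339). SPCS2, of the signal peptidase, had a slope of 1.40 (adjusted p = 0.000662) and SEC61B one of 1.40 (adjusted p = 0.00281), all from edgeR. None of the 4 genes of ER-associated degradation followed SELK. The breadth over lists rested partly on the 2 libraries apart. Without them 4 proteasome genes, 3 chaperones and 2 genes of ER folding and translocation rose, and no gene of the other lists. SPCS2 no longer passed there (adjusted p = 0.0604 from edgeR).

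SELK also followed the first component of all genes. Over 13 birds r was 0.81 (rho 0.91), with a permutation p of 2e-05 for r and 0.00016 for rho, and 0.00016 and 0.00128 after adjustment over the 8 members. Without the 2 birds farthest out on the component, which were the 2 libraries apart, r was 0.85. CANX ran the other way at r = -0.74 (rho -0.50), with a permutation p of 0.00488 for r and 0.0990 for rho, and 0.0195 and 0.396 after adjustment. For CANX r was -0.36 without those 2 libraries, so the relation rests on them. None of the other 6 members passed, and HYOU1 had r = 0.03 (rho -0.08; permutation p = 0.933 and 0.808, adjusted 0.933 and 0.808). Within populations SELK thus moved with the first component, and the listed genes named above rose with SELK. Those listed genes are among the elements that form the component, and their own relation to it was not tested. The part of RNA quality or of the mix of cells in these relations was not tested.

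**Figure D5:**
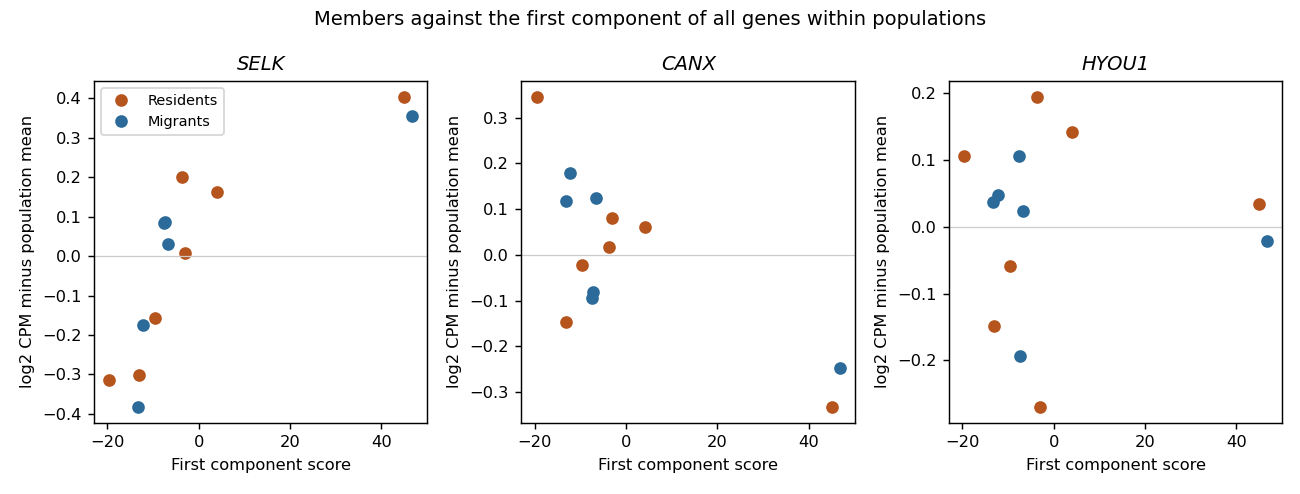
Log2 CPM minus the population mean of SELK, CANX and HYOU1 (vertical) against the score of each bird on the first principal component of all other elements (horizontal, no unit), residents orange and migrants blue. The 2 points at scores of 45.1 and 46.8 are the libraries apart. SELK climbs also among the other 11 birds (r = 0.85), CANX falls mostly through those 2 points, and HYOU1 is flat (r = 0.03).

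The spread between birds, as coefficients of variation of CPM, differed among the members. HYOU1 and CANX were chosen for a small p, which favours a low spread within populations. Their values therefore cannot be weighed against those of the members not chosen by p. HYOU1 had 11.4% in residents and 6.91% in migrants, where counting alone gives 4.32% and 4.94%. For CANX the values were 14.6% and 11.3% in residents and migrants, and for SELK 19.0% and 17.3%. EIF2AK3 varied by 12.3% in residents and 21.0% in migrants, where counting alone gives 10.2% and 10.6%, so among residents its spread was little above what the depth allows. DERL3 had 24.5% and 25.9%, against 11.1% and 11% from counting.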

How the data were processed

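The authors deposited raw counts, whole numbers of uniquely aligned read pairs per annotated element, 1 table per bird. By the paper and the submitters' processing notes, reads were trimmed with Trimmomatic 0.33, aligned by STAR 2.5.3a to a draft junco genome and counted with featureCounts (Subread 2.0.0 in the notes, which also name GSNAP), and elements were annotated by similarity to zebra finch proteins. The sources used here do not give the strand setting. Since only uniquely aligned pairs were counted, pairs that fit several similar genes equally well had been dropped by then.

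Names came from a partial copy of the study's supplementary table with 1223 rows, whose columns of comparisons (fold changes and p-values) were not used. Symbols turned into dates there were left out, except SEP15, taken from its description. Counts were fitted with edgeR 4.0.16 in R 4.3.3 (TMM factors, quasi-likelihood test, Benjamini-Hochberg adjustment at 0.05, a filter of 5 or more counts in 6 or more of 13 libraries). Fold changes are resident over migrant, and standard errors are its size over the root of the F statistic, with 95% intervals from 11 degrees of freedom. DESeq2 1.42.0, limma-voom (limma 3.58.1), edgeR's likelihood ratio test, other factors and filters, a replicate block, library number as a covariate and fits without 1 bird or without both libraries apart were alternatives. Correlations used log2 CPM (prior count 2) centred on population means, with 100000 two-sided permutations of birds within populations (numpy 2.4.6). Named genes are the members, the extremes of each list, listed genes past the threshold, and the 3 most alike named genes for HYOU1, HSPA8 and CANX. One of these genes is not reported here. The fits on HSPA8 and SELK, the named genes they called and the genes most like SELK were chosen after the values were seen. Members and lists were chosen with earlier results of these data known. Steps were tested on simulated counts. Every 2 libraries of a population differed by more than sampling noise (lowest chi-square per gene 7.21). No genome was used, so no coordinates or sequences are given, and levels are not compared between genes.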

Additional observations from a re-analysis of the deposited data

How the results depend on the processing

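The counts between populations stayed at 0 under edgeR's quasi-likelihood test whatever the factors, the filter or the bird left out. DESeq2 and edgeR's likelihood ratio test each called 2 genes higher and 1 lower in residents, none of them a member. The log2 fold change stayed positive in all alternatives for HYOU1 (0.30 to 0.40), CANX (0.24 to 0.40) and HSPA8 (0.37 to 0.52). Each of these genes had been picked for that very difference, so refitting the same counts was unlikely to turn the sign. Their steady sign is therefore no test of the difference. It cannot be weighed against the signs of DERL3 and EIF2AK3, which were not picked in this way. The sign of DERL3 was positive without both libraries apart (0.09), with library number as a covariate (0.28) and without migrant replicate 2 (0.002), and that of EIF2AK3 was negative without migrant replicate 4 (-0.06). The cause was not tested. Replicate numbers did not pair the birds, since the deviations of same-numbered birds had r from -0.18 to 0.06. With replicate number as a replicate block, which leaves out resident replicate 7, 271 elements had an unadjusted p under 0.05 in place of 442, and no call changed. Without resident replicate 4 this number was 671.

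The number of pairs of members past the threshold was 0 in all alternatives. Of the counts of followers, those of HSPA8 were 61 rising and 48 falling without both libraries apart, 3 falling with limma-voom, and from 1 to 30 rising and from 0 to 24 falling without 1 bird. With total counts only, AHSA1 (adjusted p = 0.0661 from edgeR) and ELOVL2 (0.165) no longer passed. Those of SELK were 247 rising and 27 falling without both libraries apart, 295 rising and 1411 falling with total counts only, and from 399 to 917 rising and from 93 to 744 falling without 1 bird, with the lowest of both without migrant replicate 1. Among the members, depth limits DERL3 and EIF2AK3 most, at means of 81.0 and 96.0 counts per resident library.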
